A study of Homo sapiens with 8 samples.

Results

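The genes of glycolysis and of the hypoxia response were followed in HCT116, an established line of human colorectal cancer, as a set of 38 members taken by gene symbol. Every probe of a member on the array was used, older aliases of its symbol included. Of the 38 members, 37 had a probe and 33 had a probe bright enough to be tested, out of 17559 genes with a probe and 10260 with a tested probe in the whole series. The cells had received a synthetic miR-8073 mimic (3 arrays), a microRNA-negative control sequence (3 arrays) or the mock treatment without a sequence (2 arrays). All groups were the same unmodified cell line, and total RNA of each sample was labelled with Cy5 on a 3D-Gene oligo chip. Whether replicates came from separate cultures is not stated in the labels, so each p-value reflects the spread among these arrays alone, and that spread may be technical. The study states 2 different times between transfection and RNA extraction, so the time is not fixed here.

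Glycolysis splits glucose into pyruvate in the cytosol and yields ATP without oxygen, and tumour cells commonly run it at a high rate and export the lactate formed from pyruvate. Its enzymes and transporters are a classic output of the hypoxia-inducible factor, HIF, a dimer of an oxygen-regulated alpha subunit and the constant subunit ARNT. In oxygen, prolyl hydroxylases of the EGLN family mark the alpha subunit, VHL recruits it for degradation, and little HIF reaches the DNA. This control acts on the protein, so the level of HIF1A mRNA does not show the activity of the factor.

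The molecule added to the cells is shown first because the contrast of the study is its presence. In RefSeq (GRCh38.p14) miR-8073 lies at chr13:110340968-110340989 on the plus strand, inside the span of the collagen gene COL4A2. Its seed, bases 2 to 8 from the 5′ end, is the stretch through which a microRNA pairs with messages, and stands in capitals.
hsa-miR-8073: aCCUGGCAgcagggagcgucgu

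The promoter windows of 3 members are shown next because these members differed between the mimic and the negative control and point in both directions. HIF binds DNA at a short core, ACGTG or GCGTG, which was searched on both strands in windows from 250 bases before to 50 bases after each start site (RefSeq, GRCh38.p14). PFKL (chr21:44299803-44300102, plus strand) and ADM (chr11:10304823-10305122, plus strand) were lower with the mimic. BNIP3 (chr10:131981874-131982173, minus strand) was higher with the mimic. Capitals mark each match on the strand shown, and an overlap such as CACGTG counts once per strand.
PFKL: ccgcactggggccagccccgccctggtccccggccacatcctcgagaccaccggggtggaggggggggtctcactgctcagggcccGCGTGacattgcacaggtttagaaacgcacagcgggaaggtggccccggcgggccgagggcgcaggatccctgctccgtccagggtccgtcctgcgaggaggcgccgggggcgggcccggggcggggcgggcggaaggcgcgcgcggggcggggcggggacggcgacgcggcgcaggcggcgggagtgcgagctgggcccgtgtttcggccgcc
ADM: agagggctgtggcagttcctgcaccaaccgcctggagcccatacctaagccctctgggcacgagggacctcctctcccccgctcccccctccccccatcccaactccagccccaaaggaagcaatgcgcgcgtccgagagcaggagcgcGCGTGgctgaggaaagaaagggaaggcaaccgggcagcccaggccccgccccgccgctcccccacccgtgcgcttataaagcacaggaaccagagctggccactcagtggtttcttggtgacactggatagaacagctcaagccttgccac
BNIP3: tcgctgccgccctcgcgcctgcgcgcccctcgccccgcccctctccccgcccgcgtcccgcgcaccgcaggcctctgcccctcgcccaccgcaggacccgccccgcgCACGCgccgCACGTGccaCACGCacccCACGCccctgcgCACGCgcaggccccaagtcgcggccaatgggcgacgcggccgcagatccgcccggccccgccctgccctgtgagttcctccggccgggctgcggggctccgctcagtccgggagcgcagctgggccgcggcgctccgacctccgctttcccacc
The PFKL window held 1 match, 164 bases before the start, the ADM window 1 match, 101 bases before it, and the BNIP3 window 6 matches. A window was found for 33 of the 38 members, and 24 of these windows (72.7%) held a match, against 48.4% of all 35116 windows. These shares are not matched: each member gave 1 window, while the other share took every listed window, whether or not its gene was tested. Enrichment was not tested. Matches stood in 3 of 3 windows of members that were lower against the negative control, in 2 of 2 windows of members that were higher, and in 17 of 23 windows of tested members that did not pass. The presence of a match therefore did not sort the members by direction. The number of matches was 1 each for SLC2A1, PFKL and ADM, which were lower, and 3 for HK2 and 6 for BNIP3, which were higher. SLC2A3 and SLC16A1, also higher, had no window. Among tested members that did not pass, the number ran from 0 (ARNT) to 6 (LDHA). A relation of the number to direction was not tested, and a match is a description of letters, not a bound site.

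Signals are given in scanner units after the background of the blank spots was removed and the arrays were set to a common distribution. Tests ran in limma on log2(signal + 50), a scale that understates the change of dim probes, and folds are ratios of mean signals. A probe counted as changed where its Benjamini-Hochberg adjusted p over all 12904 tested probes was below 0.05. On each array 47.3% to 52.3% of probes lay above background, and arrays correlated at 0.993 to 0.996 within groups and 0.983 to 0.993 between groups. As a check of the labels, FOXM1, which the study names as a target of the microRNA, read 8.71, 6.37 and 6.84 with the mimic, 66.7, 72.5 and 74.7 with the negative control, and 75.2 and 61.8 in mock. Of the 5 genes that it names as targets, 3 were lower with the mimic against each control by their brightest probe (FOXM1, CCND1 and KLK10). MBD3 was lower by 1 of its 3 probes, and CASP2 did not pass (-0.33 against the negative control, adjusted p = 0.0591). The study chose these 5 genes partly for a fall against both controls on its own mRNA arrays. Their lower signal here bears on the labels and is no separate evidence of targeting. Of the epithelial markers, 9 were tested, and of 9 genes marking blood, stromal, endothelial or liver cells 0 rose above background on enough arrays to be tested. In bulk RNA, fewer cells carrying a message and less of it per cell cannot be told apart.

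Against the negative control, 4 member probes were lower with the mimic (SLC2A1, both probes of PFKL, and ADM) and 4 were higher (SLC2A3, 1 of 2 tested probes of HK2, SLC16A1 and BNIP3). Each count was 10.3% of the 39 tested member probes, beside 7.82% lower and 7.81% higher among all tested probes, so the share of members past the test was near that of the array. Against mock, 0 member probes were lower, where 2.56% of all probes were, and 1 was higher (ALDOC), where 1.22% were. At an unadjusted p below 0.05 limma gave 15 member probes against the negative control and 9 against mock. With these settings no member passed in the same direction against both controls, where 2.01% of all probes were lower and 0.775% higher. Under some other settings PFKL and TPI1 did, as given below. Between the negative control and mock, 0 member probes were lower (2.23% of all) and 1 was higher (ALDOC, 1.37% of all), with 11 at an unadjusted p below 0.05. The 3 comparisons share arrays, so each is given with its own values and none stands as a repeat of another. With a local background, read from a ring at each spot instead of from the blank spots, limma called 0 probes of the whole array in each comparison, against 367, 266 and 421 at an unadjusted p below 0.05. The log intensity of the ring correlated with that of its spot at 0.919 to 0.986 over the probes of an array. The ring may therefore hold signal of the spot itself, which was not tested.

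**Figure D1:**
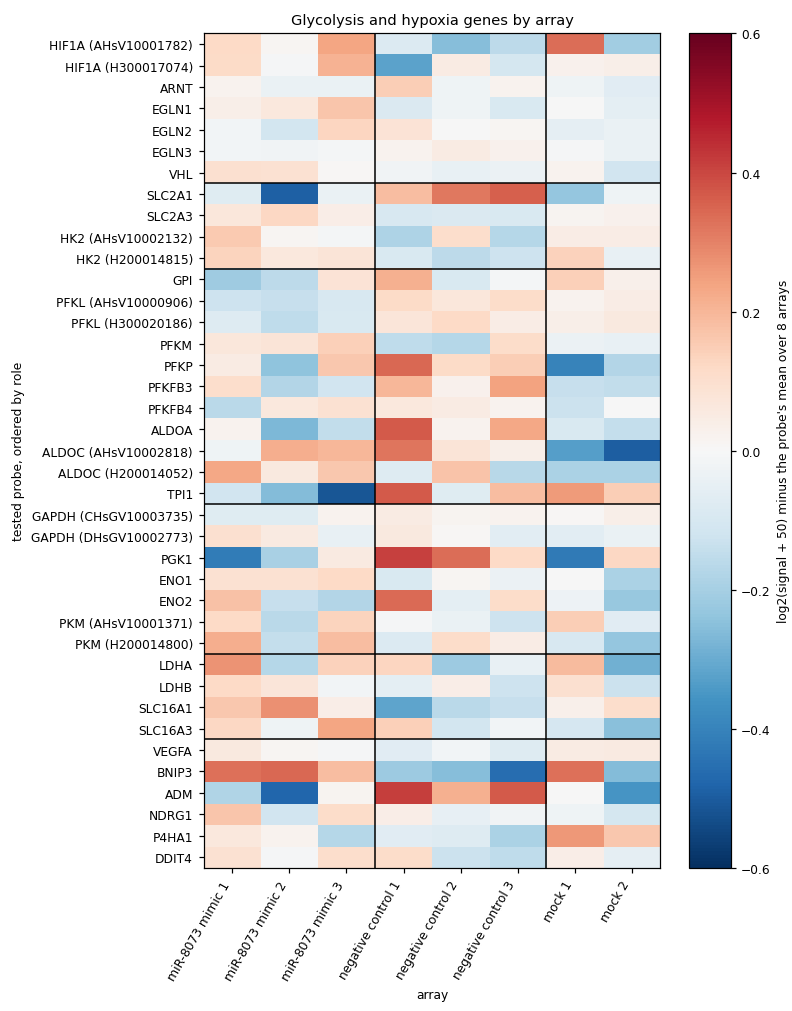
Each row is a tested member probe, ordered by role, and each column an array (miR-8073 mimic, negative control, mock). Colour gives log2(signal + 50) minus the mean of the probe over the 8 arrays, and the rows of PFKL are below their mean on all 3 mimic arrays and above it on all 5 control arrays.

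On the scale of log2(signal + 50), member changes against the negative control ran from -0.55 to 0.60, and their median absolute size was 0.139, against 0.0879 over all tested probes. Against mock they ran from -0.50 to 0.54, with a median absolute size of 0.0842 against 0.0694. For dim probes these sizes depend on the processing: in the deposited log2 values the PFKL probes changed by -0.81 and -1.03, SLC2A3 by 1.07 and the called HK2 probe by 1.13. Taking the brightest tested probe of each gene, the median change of the 33 members was 0.06 against the negative control and 0.07 against mock, beside medians of 0.00 and 0.01 over all 10260 tested genes. Signs were mixed: 17 member probes lay below 0 and 22 above it against the negative control, and 12 below and 27 above against mock.

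Of the HIF subunits and oxygen-sensing genes, 0 of 6 tested genes passed in any comparison. HIF1A, the oxygen-regulated subunit, read 55.7, 47.2 and 62.6 with the mimic, 28.2, 51.0 and 40.6 with the negative control, and 49.4 and 50 in mock by its brighter probe. The groups overlapped, and the log2 change from the negative control was 0.23 ± 0.10 (SE, limma adjusted p = 0.148) and from mock 0.07 ± 0.11 (adjusted p = 0.797). The dimmer HIF1A probe gave 0.29 ± 0.13 (adjusted p = 0.193), and here the mimic arrays, at 22.1 to 34.3, all lay above the negative control arrays, at 9.97 to 17.7. Mock was split on that probe, at 40.3 and 12.0. Against the negative control the probe passed with only the 2 groups compared (limma adjusted p = 0.0404) and without mock replicate 1 (0.0396) or 2 (0.0402). It also passed with an intensity trend in the fit (0.0426). The second alpha subunit, EPAS1, was above background on 0 of 8 arrays. ARNT, the partner subunit, had 1 probe above background on no array and 1 tested probe that read 2.20 to 10.7 over the 8 arrays.

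EGLN1, the main prolyl hydroxylase of HIF, was 1 of 3 members whose mimic arrays all lay above the 5 control arrays. It read 18.6, 19.9 and 25.2 with the mimic, 13, 15.7 and 12.9 with the negative control, and 16.8 and 14.3 in mock. It exceeded the negative control by 0.16 ± 0.05 (adjusted p = 0.0583) and mock by 0.12 ± 0.05 (adjusted p = 0.269), and did not pass. It passed against the negative control with an offset of 16 (0.31, adjusted p = 0.0328) and in the deposited log2 values (0.71, adjusted p = 0.0389). EGLN2, EGLN3 and VHL, the other hydroxylases and the recognition subunit of the ligase, differed from the negative control by -0.03, -0.05 and 0.10, and their adjusted p-values were 0.787, 0.321 and 0.199. Their 95% intervals ran from -0.18 to 0.11, from -0.12 to 0.02 and from -0.01 to 0.20.

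The glucose transporters moved in opposite directions against the negative control. SLC2A1, which encodes GLUT1, the main carrier of glucose into most tumour cells, lies at chr1:42925353-42958868. It read 1261, 929 and 1289 with the mimic, 1514, 1663 and 1717 with the negative control, and 1123 and 1301 in mock. All mimic arrays were below all negative control arrays, whereas mock replicate 1 lay within the range of the mimic and mock replicate 2 just above it. The mimic averaged 1159 ± 200 and the negative control 1631 ± 105 (SD, n = 3 each), 1.41-fold lower with the mimic, and the log2 change was -0.49 ± 0.13 (SE, limma adjusted p = 0.0402). Against mock it was -0.07 ± 0.14 (adjusted p = 0.858), and the negative control minus mock gave 0.41 ± 0.14 (adjusted p = 0.152). The call ended without any 1 of the negative control arrays (adjusted p = 0.075, 0.0997 and 0.112 without replicates 1, 2 and 3) or without mimic replicate 1 (0.055). It also ended in the deposited log2 values (-0.47, adjusted p = 0.149), with no filter on dim probes (0.118), with the replicate block (0.0603) and by the methods' t-test (0.145).

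SLC2A3, which encodes GLUT3, a carrier of high affinity for glucose, lies at chr12:7919230-7936187. Its probe was near background and read 8.38, 10.7 and 7.34 with the mimic, 2.15, 2.45 and 2.32 with the negative control, and 6.34 and 6.67 in mock. It was above background on none of the negative control arrays, so only a bound could be set there. With the offset of the log2 scale left in the signals, the mimic was at least 1.06-fold higher. That bound understates the fold of the signals themselves. The mimic arrays were above all 5 control arrays. The log2 change was 0.17 ± 0.03 (SE, limma adjusted p = 0.017) against the negative control and 0.06 ± 0.04 (adjusted p = 0.496) against mock. The call ended without negative control replicate 1 or 3 (adjusted p = 0.0571 and 0.0609) or mimic replicate 2 (0.054), and under median centring (0.441), and in the deposited log2 values the change was 1.07 and passed (0.0218).

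Hexokinases trap glucose in the cell by phosphorylation. HK1 was above background on 0 of 8 arrays. HK2, the inducible form, lies at chr2:74834127-74893359, and its dimmer probe read 21.0, 17.7 and 18.3 with the mimic, 10.9, 8.10 and 9.50 with the negative control, and 21.3 and 12.9 in mock. The mimic arrays were all above the negative control arrays. Of the mock arrays, 1 lay above all mimic arrays and 1 between the mimic and the negative control. Relative to the negative control, the mimic signal was 2.0-fold higher, with a log2 change of 0.21 ± 0.05 (SE, limma adjusted p = 0.0337). Relative to mock the change was 0.04 ± 0.06 (adjusted p = 0.778), and the negative control minus mock gave -0.17 ± 0.06 (adjusted p = 0.157). The brighter HK2 probe read 57.0, 46.7 and 45.3 with the mimic and 34.5, 53.5 and 35.3 with the negative control, which overlapped, with a change of 0.13 ± 0.09 (adjusted p = 0.329). The call of the dimmer probe ended without any 1 of the 3 mimic or 3 negative control arrays (adjusted p of 0.069 to 0.0974), with no filter (0.0734) and under median centring (0.224). In the deposited log2 values its change was 1.13 and passed (adjusted p = 0.0257).

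**Figure D2:**
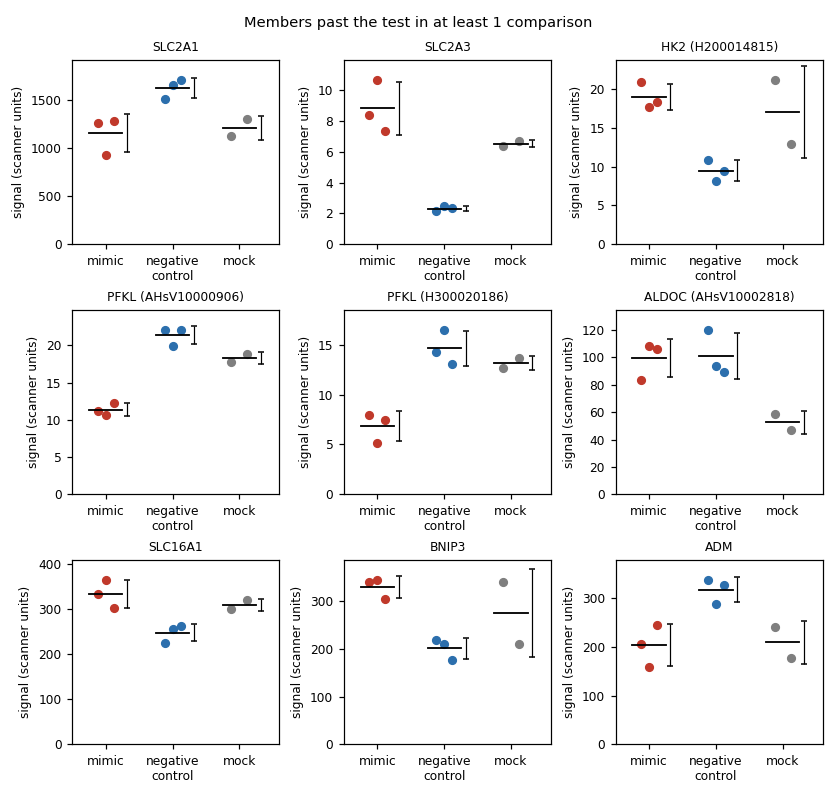
Points are the signals of single arrays in scanner units (vertical axis, from 0) for each member probe past the test in at least 1 comparison. Horizontal lines are group means and bars are SD, with the miR-8073 mimic (n = 3) left, the negative control (n = 3) in the middle and mock (n = 2) right. The mimic points of both PFKL probes lie below all control points, while those of SLC2A1 and ADM lie beside the mock points.

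Upper glycolysis held the member with the steadiest difference. PFKL, the liver-type subunit of phosphofructokinase, the enzyme of the committed step, lies at chr21:44300053-44327373. Its brighter probe read 11.2, 10.7 and 12.3 with the mimic, 22.1, 20.0 and 22.0 with the negative control, and 17.8 and 18.9 in mock. Its dimmer probe read 7.99, 5.12 and 7.43 with the mimic, 14.3, 16.5 and 13.1 with the negative control, and 12.7 and 13.7 in mock. On both probes the 3 mimic arrays were below all 5 control arrays. Signals were 1.88-fold and 2.14-fold lower with the mimic than with the negative control, and the log2 changes were -0.22 ± 0.03 (SE, limma adjusted p = 0.00589) and -0.19 ± 0.04 (adjusted p = 0.0171). Relative to mock the signals were 1.61-fold and 1.93-fold lower, with changes of -0.15 on both probes that did not pass (adjusted p = 0.0646 and 0.0981).

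Leaving out any 1 of the 8 arrays kept the call of the brighter PFKL probe against the negative control (highest adjusted p = 0.0279). The dimmer probe lost its call without negative control replicate 1 (adjusted p = 0.054) or 2 (0.0523) or without mimic replicate 2 (0.055), and by the methods' t-test (0.0565). In the deposited log2 values, where the changes were -0.81 and -1.03, both passed (adjusted p = 0.0226 and 0.0169). Relative to mock, the brighter probe passed with an offset of 16 (-0.33, adjusted p = 0.0496), with no filter on dim probes (0.0311) and with an intensity trend in the fit (0.0368). The dimmer probe passed relative to mock with the trend (0.0215).

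The other phosphofructokinase subunits did not pass. PFKM, the muscle type, read 361, 365 and 384 with the mimic and 304, 299 and 374 with the negative control, a change of 0.17 ± 0.08 (adjusted p = 0.182). PFKP, the platelet type, read 1380, 1117 and 1495 with the mimic, 1703, 1443 and 1481 with the negative control, and 996 and 1171 in mock. It gave -0.21 ± 0.12 relative to the negative control (adjusted p = 0.267) and 0.28 ± 0.13 relative to mock (adjusted p = 0.322), so its sign depended on the control. PFKFB3 and PFKFB4, which make the activator fructose 2,6-bisphosphate, gave -0.22 ± 0.08 (adjusted p = 0.127) and -0.05 ± 0.07 (adjusted p = 0.698) against the negative control. GPI, which turns glucose 6-phosphate into fructose 6-phosphate, gave -0.13 ± 0.10 (adjusted p = 0.431).

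Aldolases cleave fructose 1,6-bisphosphate. ALDOC, at chr17:28573120-28576895, was the only member that passed against mock, and it did so in both transfected groups. Its brighter probe read 83.7, 109 and 107 with the mimic, 120, 93.6 and 89.5 with the negative control, and 58.4 and 46.8 in mock. Both mock arrays were below the other 6, and the mimic and the negative control overlapped. The signal was 1.89-fold higher with the mimic than in mock (log2 change 0.54 ± 0.11, limma adjusted p = 0.0453) and 1.92-fold higher with the negative control than in mock (0.55 ± 0.11, adjusted p = 0.0437), while the mimic differed from the negative control by -0.01 ± 0.10 (adjusted p = 0.95). The dimmer ALDOC probe read 68.0, 54.5 and 62.5 with the mimic, 45.0, 62.9 and 39.4 with the negative control, and 38 and 38.1 in mock, and gave 0.34 ± 0.10 for mimic minus mock (adjusted p = 0.114). The call against mock ended without mimic replicate 2 or 3, negative control replicate 2 or 3, or mock replicate 1 or 2 (adjusted p of 0.0704 to 0.216). The call of the negative control against mock ended without any 1 of the arrays other than mimic replicate 1 (adjusted p of 0.0631 to 0.123). Both also ended in the deposited log2 values (adjusted p = 0.084 and 0.103), with no filter (0.127 and 0.126), with only the groups compared (0.0885 and 0.0774), with the replicate block (0.115 and 0.103) and by the methods' t-test (0.287 and 0.271).

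ALDOA, the main aldolase of most cells, read 6409, 5217 and 5694 with the mimic, 8164, 6409 and 7419 with the negative control, and 5914 and 5714 in mock. Relative to the negative control this was -0.34 ± 0.10 (adjusted p = 0.0639), and relative to mock -0.01 ± 0.11 (adjusted p = 0.972). TPI1, which interconverts the triose phosphates made by aldolase, read 5193, 4687 and 3926 with the mimic, 7278, 5344 and 6408 with the negative control, and 6716 and 6227 in mock. Its mimic arrays were below all 5 control arrays, and its changes of -0.46 ± 0.13 (adjusted p = 0.0584) and -0.50 ± 0.15 (adjusted p = 0.125) were alike in size against both controls. ALDOA and TPI1 did not pass, but against the negative control both did with an offset of 16 (-0.34, adjusted p = 0.0455, and -0.46, adjusted p = 0.0278) and under median centring (-0.30, adjusted p = 0.0107, and -0.46, adjusted p = 0.011). Under median centring TPI1 also passed against mock (-0.47, adjusted p = 0.0414). PFKL and TPI1 supplied the 3 member probes with all mimic arrays below all 5 controls, 7.69% of the member probes beside 8.48% of all probes. EGLN1, SLC2A3 and ENO1 supplied the 3 probes with all mimic arrays above them, 7.69% beside 7.82% of all.

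Lower glycolysis, which turns triose phosphates into pyruvate and recovers ATP, had 0 of 5 tested genes past the test in any comparison. GAPDH, which oxidises glyceraldehyde 3-phosphate, read 12228, 12228 and 13074 by its brighter probe with the mimic, 13334, 13007 and 13074 with the negative control, and 12928 and 13206 in mock. Its change was -0.07 against the negative control, with a 95% interval from -0.16 to 0.02 (adjusted p = 0.258). PGK1, the first ATP-forming step, read 117, 144 and 181 with the mimic, 246, 231 and 192 with the negative control, and 116 and 193 in mock. All mimic arrays were below the negative control arrays but within the span of mock, and the changes were -0.48 ± 0.17 (adjusted p = 0.101) and -0.04 ± 0.19 (adjusted p = 0.951). PGK1 passed against the negative control with an offset of 16 (-0.56, adjusted p = 0.0462).

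ENO1, the common enolase, read 16679, 16678 and 16970 with the mimic, 14675, 15775 and 15272 with the negative control, and 15594 and 13722 in mock. The mimic arrays were above all 5 controls by a small margin, and the change of 0.14 ± 0.05 against the negative control was 1.10-fold (adjusted p = 0.126). Against mock it was 0.20 ± 0.06 (adjusted p = 0.129). ENO2, the neuronal enolase, gave -0.18 ± 0.13 against the negative control (adjusted p = 0.402). PKM, the last ATP-forming step, gave 0.09 ± 0.09 and 0.06 ± 0.10 by its 2 probes (adjusted p = 0.58 and 0.727). The probes were not matched to single PKM isoforms here. PGAM1, the mutase between PGK1 and the enolases, had no probe by its symbol in the table used.

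**Figure D3:**
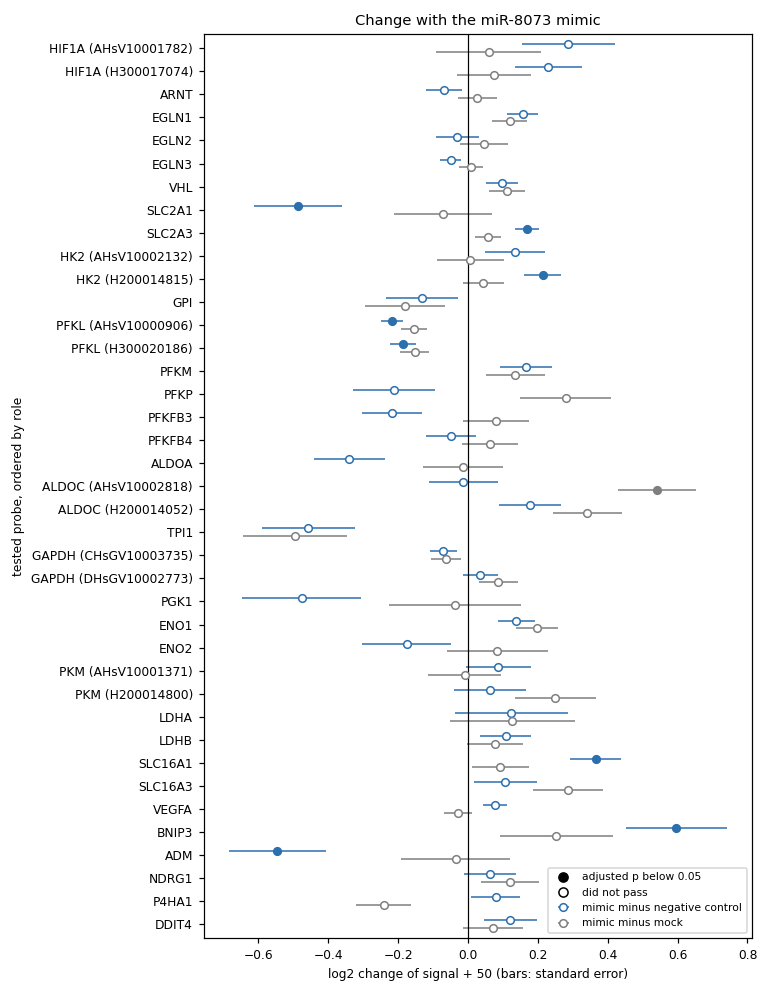
Points are log2 changes of signal + 50 (horizontal axis) for the 39 tested member probes, for the miR-8073 mimic minus the negative control and minus mock, with bars of 1 standard error. Filled points have an adjusted p below 0.05, and the filled points of SLC2A1, HK2, SLC16A1 and ADM have a mock counterpart near 0.

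Of the genes for the fate of pyruvate and lactate, 1 of 4 tested passed. SLC16A1 encodes MCT1, a lactate and pyruvate carrier, and lies at chr1:112911847-112956196. It read 334, 366 and 304 with the mimic, 226, 257 and 262 with the negative control, and 301 and 320 in mock. The mimic arrays were all above the negative control arrays, and mock lay near the low end of the mimic. The mimic averaged 335 ± 31.2 and the negative control 248 ± 19.5 (SD, n = 3 each), 1.35-fold higher with the mimic, with a log2 change of 0.37 ± 0.07 (SE, limma adjusted p = 0.0162). Against mock it was 0.09 ± 0.08 (adjusted p = 0.625), and the negative control was lower than mock on all its arrays (-0.27 ± 0.08, adjusted p = 0.113). The call ended without negative control replicate 1 (adjusted p = 0.0521), in the deposited log2 values (0.47, adjusted p = 0.152), with no filter (0.0539) and by the methods' t-test (0.0953).

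The lactate dehydrogenase subunits did not pass in any comparison. LDHA, which favours lactate formation, read 9610, 7052 and 8747 with the mimic, 8695, 6832 and 7699 with the negative control, and 9079 and 6506 in mock. Its spread was as large within groups as between them, and the change of 0.12 had a 95% interval from -0.25 to 0.50 (adjusted p = 0.656). LDHB, the subunit that favours pyruvate, gave 0.11 with an interval from -0.06 to 0.28 (adjusted p = 0.36). SLC16A3, which encodes the lactate exporter MCT4, was above the negative control by 0.11 ± 0.09 (adjusted p = 0.469) and above mock by 0.29 ± 0.10 (adjusted p = 0.176), neither past the test. Both probes of PDK1, a kinase that inhibits the pyruvate dehydrogenase complex, were above background on 0 of 8 arrays.

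Of the hypoxia targets outside glycolysis, 1 of 6 tested was lower against the negative control and 1 was higher. BNIP3, a mitochondrial protein that promotes mitophagy, spans chr10:131967684-131981923. It read 340, 344 and 303 with the mimic, 217, 210 and 176 with the negative control, and 340 and 209 in mock. The mimic was above every negative control array, while 1 mock array matched the mimic and the other matched the negative control. The mimic averaged 329 ± 22.7 and the negative control 201 ± 22.1 (SD, n = 3 each), a 1.64-fold higher signal, with a log2 change of 0.60 ± 0.14 (SE, limma adjusted p = 0.0329). Against mock the change was 0.25 ± 0.16 (adjusted p = 0.478). The call ended without any 1 of the 3 mimic or 3 negative control arrays (adjusted p of 0.0597 to 0.1001), in the deposited log2 values (0.76, adjusted p = 0.0581) and with no filter (0.106).

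ADM encodes adrenomedullin, a secreted vasodilator peptide, and spans chr11:10305073-10307397. It read 207, 160 and 245 with the mimic, 338, 288 and 326 with the negative control, and 240 and 178 in mock. The mimic arrays were all below the negative control arrays and shared the range of mock. The mimic averaged 204 ± 42.7 and the negative control 317 ± 26.2 (SD, n = 3 each), 1.56-fold lower, with a log2 change of -0.55 ± 0.14 (SE, limma adjusted p = 0.0389). Against mock it was -0.03 ± 0.16 (adjusted p = 0.946), and the negative control minus mock gave 0.51 ± 0.16 (adjusted p = 0.121). The call ended without any 1 of the negative control arrays or without mimic replicate 1 or 2 (adjusted p of 0.0619 to 0.117), in the deposited log2 values (-0.62, adjusted p = 0.0941), with no filter (0.117) and by the methods' t-test (0.124).

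The remaining hypoxia targets did not pass. VEGFA, the vascular growth factor, read 27.5, 25.2 and 24.1 with the mimic, 20.9, 23.6 and 20.5 with the negative control, and 26.9 and 27.2 in mock, with a change of 0.08 ± 0.04 (adjusted p = 0.186). P4HA1, a subunit of the collagen prolyl hydroxylase, read 58.2, 55.2 and 42.0 with the mimic, 49.1, 48.4 and 40.9 with the negative control, and 74.2 and 66.1 in mock. Both mock arrays were above the other 6, and the changes were 0.08 ± 0.07 from the negative control (adjusted p = 0.488) and -0.24 ± 0.08 from mock (adjusted p = 0.15). NDRG1, a stress-response gene, and DDIT4, an inhibitor of mTORC1 signalling, gave 0.06 ± 0.07 (adjusted p = 0.617) and 0.12 ± 0.08 (adjusted p = 0.327) against the negative control. CA9, a carbonic anhydrase and a common marker of hypoxic tumour cells, was above background on 0 of 8 arrays.

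For 6 members, 2 probes were tested, which shows how far the probes of a gene moved together. Both PFKL probes passed, and 1 of 2 passed for HK2 and, against mock, for ALDOC. The signs of the 2 probes agreed against the negative control for HIF1A, HK2, PFKL and PKM. They differed for GAPDH, at -0.07 by the brighter and 0.04 by the dimmer probe, and for ALDOC, at -0.01 and 0.18. The dimmer GAPDH probe lay near background, at 10.9 to 18.1, where the brighter one read 12228 to 13334, so its sign says little. With the median over the probes of each gene in place of the brightest probe, the median change of the members was 0.08 against the negative control and 0.07 against mock.

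**Figure D4:**
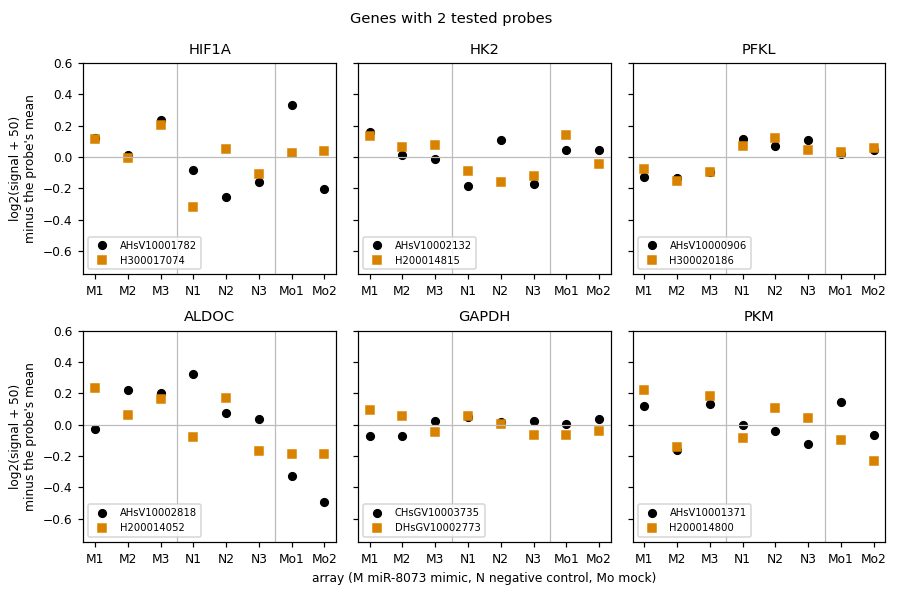
Each panel is a member gene with 2 tested probes, and each point is the log2(signal + 50) of a probe on an array minus the mean of that probe over the 8 arrays (M miR-8073 mimic, N negative control, Mo mock). Both PFKL probes lie below 0 on the 3 mimic arrays and above it on the 5 control arrays, whereas both ALDOC probes lie lowest in mock.

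The genes around the members were counted by list, with the brightest tested probe standing for a gene. Over all 10260 tested genes counted this way, 890 were lower and 834 higher against the negative control, and 295 were lower and 138 higher against mock. Of the other glycolysis and glucose genes, 2 of 17 tested were lower with the mimic than with the negative control and 0 higher. They were BSG (-0.70, limma adjusted p = 0.00684), the chaperone of the lactate carriers, and GYS1 (-0.22, adjusted p = 0.0464), muscle glycogen synthase. Against mock, where 0 of 17 passed, BSG gave -0.34 (adjusted p = 0.186) and GYS1 -0.16 (adjusted p = 0.238). Of the genes of pyruvate dehydrogenase and mitochondrial pyruvate entry, 1 of 11 was lower, PDK3 (-0.23, adjusted p = 0.0245), a kinase that inhibits the complex, with -0.07 against mock (adjusted p = 0.571). BSG passed without any 1 of the 8 arrays. The call of GYS1 ended without any array except mimic replicate 1 (adjusted p up to 0.127), and that of PDK3 without negative control replicate 1 or 2 or any mimic array (up to 0.0732). Under 11 other settings of processing and test, the call held in 10 for BSG, 4 for GYS1 and 7 for PDK3.

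The tricarboxylic acid cycle had 3 of 14 genes lower and 2 higher against the negative control. MDH2, mitochondrial malate dehydrogenase, read 515, 530 and 553 with the mimic, 871, 752 and 986 with the negative control, and 963 and 994 in mock. It was lower against both controls, by changes of -0.65 (limma adjusted p = 0.00402) and -0.82 (adjusted p = 0.00757). IDH3A, the catalytic subunit of the NAD-linked isocitrate dehydrogenase, read 661, 767 and 688 with the mimic, 424, 411 and 465 with the negative control, and 663 and 754 in mock. Here the negative control stood apart: the mimic exceeded it by 0.64 (adjusted p = 0.00225) and differed from mock by -0.01 (adjusted p = 0.986), and the negative control minus mock gave -0.65 (adjusted p = 0.0121). DLST, a subunit of the oxoglutarate dehydrogenase complex, was lower against the negative control (-0.55, adjusted p = 0.0355). MDH2 lost its call against mock without mock replicate 2 (adjusted p = 0.0542), and DLST lost its call without any negative control array or without mimic replicate 1 or 2 (up to 0.105). The other calls given here for MDH2 and IDH3A held without any 1 array. Under 11 other settings, the calls against the negative control held in 9 for MDH2, 10 for IDH3A and 8 for DLST. The call of MDH2 against mock held in 8, and that of IDH3A for the negative control against mock in 8. Both of these ended in the deposited log2 values and by the methods' t-test.

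In the pentose phosphate pathway, a branch from glucose 6-phosphate that yields NADPH and ribose, 2 of 6 genes were lower against the negative control and 1 higher. These were the lactonase PGLS (-0.79, limma adjusted p = 0.0146), the transketolase TKT (-0.39, adjusted p = 0.0417) and the epimerase RPE (0.45, adjusted p = 0.0464). Against mock the same genes gave -0.39, 0.14 and 0.34 and did not pass (adjusted p = 0.283, 0.588 and 0.239), so TKT had opposite signs against the 2 controls. The call of PGLS ended without negative control replicate 1 (adjusted p = 0.0553), that of TKT without any array except mimic replicate 3 (up to 0.124), and that of RPE without negative control replicate 1 or 3 or any mimic array (up to 0.137). Under 11 other settings, the call held in 9 for PGLS, 5 for TKT and 6 for RPE.

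Of the other HIF control genes, 1 of 11 was lower and 2 were higher against the negative control. HIF1AN, the asparaginyl hydroxylase that blocks the binding of HIF to its coactivators, read 20.1, 17.4 and 19.8 with the mimic, 48.7, 47.4 and 49.3 with the negative control, and 35.3 and 31.7 in mock. Its 3 groups did not overlap, and it passed in each comparison, with -0.51 for mimic minus negative control (limma adjusted p = 0.000343), -0.27 for mimic minus mock (adjusted p = 0.0139) and 0.24 for the negative control minus mock (adjusted p = 0.0249). RBX1, a ring subunit of the VHL ligase, and HSP90AB1, a chaperone of the alpha subunit, were higher against the negative control by 0.42 (adjusted p = 0.0236) and 0.26 (adjusted p = 0.0364). Against mock they gave 0.23 (adjusted p = 0.3) and 0.05 (adjusted p = 0.81). Leaving out any 1 array kept the call of HIF1AN against the negative control. Without mock replicate 1 or 2 its other calls ended, and that of the negative control against mock also ended without any negative control array (adjusted p up to 0.0858). RBX1 lost its call without negative control replicate 1 or 3 or mimic replicate 2 or 3 (up to 0.0827), and HSP90AB1 without negative control replicate 1 or 2 or mimic replicate 1 or 3 (up to 0.0983). Under 11 other settings, the HIF1AN call held in 10 against the negative control and in 7 against mock. Its call for the negative control against mock held in 5, and the calls of RBX1 and HSP90AB1 in 6 and 4.

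Of the other hypoxia targets, 2 of 27 were lower against the negative control and 2 higher. RBPJ, the DNA-binding partner of Notch, read 301, 310 and 261 with the mimic, 108, 90.5 and 107 with the negative control, and 245 and 272 in mock. Its change of 1.16 against the negative control (limma adjusted p = 0.000343) stood beside 0.14 against mock (adjusted p = 0.441) and -1.02 for the negative control minus mock (adjusted p = 0.00315). ERO1A, an oxidase of the endoplasmic reticulum, and ZNF395 were lower against the negative control (-0.57, adjusted p = 0.00201, and -0.28, adjusted p = 0.012), and gave -0.11 and -0.12 against mock (adjusted p = 0.479 and 0.314). For ERO1A the negative control exceeded mock (0.46, adjusted p = 0.0209). ANGPTL4, a secreted inhibitor of lipoprotein lipase, was the only gene of the list past the test against mock (0.36, adjusted p = 0.03), and the negative control also exceeded mock (0.53, adjusted p = 0.0116). The calls of RBPJ, ERO1A and ZNF395 against the negative control and of the negative control against mock for RBPJ held without any 1 array. For ERO1A, the call of the negative control against mock ended without negative control replicate 1 or 3 or mock replicate 1 (adjusted p up to 0.113). ANGPTL4 lost its call for the mimic against mock without any negative control or mock array or mimic replicate 2 (adjusted p up to 0.148), and for the negative control against mock without mock replicate 1 (0.064). Under 11 other settings, the calls against the negative control held in 10 for RBPJ, 10 for ERO1A and 9 for ZNF395. Those of the negative control against mock held in 9 for RBPJ, 6 for ERO1A and 9 for ANGPTL4. The ANGPTL4 call for the mimic against mock held in 6.

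**Figure D5:**
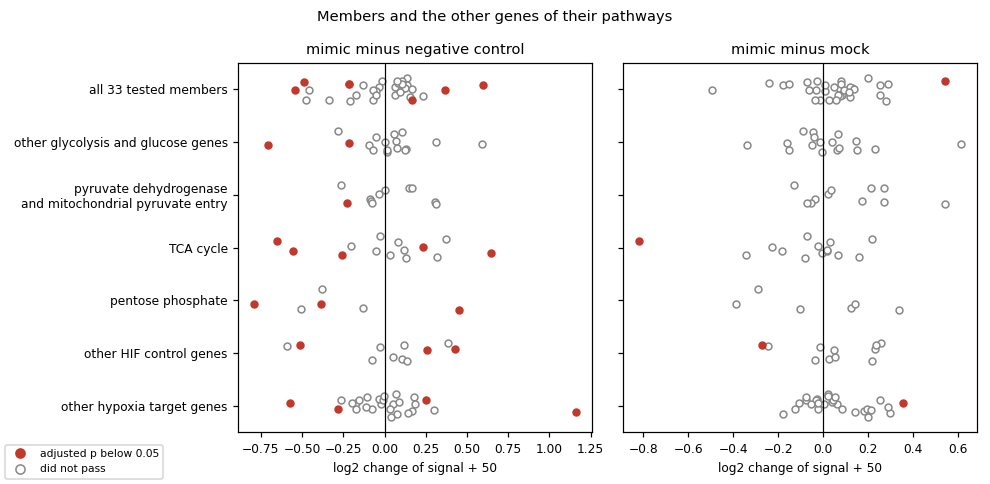
Points are the log2 changes (horizontal axis) of single genes by their brightest tested probe, in the members and the 6 surrounding lists (rows), for the miR-8073 mimic minus the negative control (left) and minus mock (right). Vertical scatter within a row only separates points, and filled points, with an adjusted p below 0.05, are fewer in the panel against mock, where they are ALDOC, MDH2, HIF1AN and ANGPTL4.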

How the data were processed

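Total RNA of HCT116 cells was hybridised to single-colour arrays, 8 in all. Per the file headers, the authors deposited raw spot intensities at 635 nm (pixel medians), neither background-corrected nor normalized. The authors also deposited log2 values, normalized by quantiles; for their background step, the sources used here give nothing. A 532 nm reading belonged to no sample and was not used. Of 24460 probes, 20236 had 1 symbol in the platform table, and 2899 symbols were updated through RefSeq synonyms.

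In limma 3.58.1 (R 4.3.3), normexp took the background from 2680 blank spots (offset 50), values were quantile normalized, and 13 faulty probe spots were left out. Printed signals are the normalized values minus the offset. A probe was tested where it exceeded the 95th percentile of the blanks on at least 2 arrays. lmFit and eBayes fitted all 8 arrays with 3 group means, two-sided, with Benjamini-Hochberg adjustment over the tested probes. The number of arrays limits the precision. The procedure was tested on simulated data. Figures were drawn in matplotlib 3.10.9.

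Members and lists were chosen with earlier results of these data known. Members past the test were to be given on each array, and of each surrounding list up to 3 genes past the test against the negative control with the largest change. ANGPTL4 was named after its values were seen. Alternatives were the background, offset, normalization, filter, fit, test, the deposited values and each array left out. The methods' t-test was Student's unpaired test, run on the values normalized here and held to the same adjusted threshold. The study states a P cutoff without mention of adjustment, joined to cutoffs of fold and signal, and these were not applied here.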

Additional observations from a re-analysis of the deposited data

How the results depend on the processing

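Counts of member probes past the test moved with the processing. The ring background, which correlated closely with the spots, gave 0 everywhere. It turned the ALDOC change against mock to -0.0704 for the mimic and -0.0619 for the negative control. It also turned the mimic's change from the negative control to 0.0608 for GYS1, 0.0333 for PDK3, 0.257 for DLST, 0.304 for PGLS and 0.00306 for ERO1A, that of MDH2 from mock to 0.163, and that of ERO1A for the negative control minus mock to -0.488. For the mimic against the negative control (4 lower and 4 higher), an offset of 16 and an intensity trend each gave 7 lower. The 4 higher calls stayed in both, with EGLN1 added, and HIF1A was also added in the trend. The deposited log2 values gave 2 lower, with SLC2A3, HK2 and EGLN1 higher. The methods' t-test gave 1 lower, with SLC2A3, HK2 and BNIP3 higher. No filter gave 2 lower and 1 higher, and median centring 6 lower and 2 higher. Against mock (0 lower, 1 higher), an offset of 16, median centring and no filter gave 1 lower, and the trend 2 lower and 2 higher. The deposited values, no filter, only the groups compared, the replicate block and the t-test gave 0 higher. For the negative control minus mock (0 lower, 1 higher), an offset of 16 gave 1 lower, the trend 3 lower and 2 higher and median centring 3 higher, and the deposited values, no filter, only the groups compared, the block and the t-test gave 0 higher. Of all probes, 2017, 488 and 465 passed in these comparisons. The deposited values gave 914, 147 and 89, and no filter 1254, 268 and 178. The t-test, held to the adjusted threshold in place of the study's own cutoffs, gave 818, 2 and 6. The trend gave 757 and 855, only the groups compared 185 and 181 and the replicate block 223 and 141 in the comparisons with mock, and an offset of 16 gave 741 for the negative control minus mock. In the deposited values the median of all probes shifted by -0.115 for that comparison, and 86.4% of the calls for the mimic and 88.8% of those for the negative control were lower than mock, against 67.6% and 61.9% in the first setting. Leaving out 1 array gave 1083 to 2236 probes, with 1 to 4 members lower and 0 to 5 higher, for the mimic against the negative control, 126 to 375 with 0 lower and 0 to 1 higher against mock, and 69 to 417 with 0 to 1 lower and 0 to 1 higher for the negative control minus mock. Same-numbered mimic and negative control arrays had deviations correlated at 0.100, 0.0249 and 0.0273, and those with unlike numbers at -0.0594 to 0.0372. The labels do not say whether the replicate numbers pair the samples, and pairing was not tested. With the replicate block, 1848 probes passed against the negative control, with 5 member probes lower and 4 higher: SLC2A1 lost its call (adjusted p = 0.0603), and ALDOA (0.0299) and TPI1 (0.0431) passed. Of 107 member values that did not pass, 19 passed and 57 turned sign in at least 1 other setting. The causes were not tested. Dim probes (among them PFKL, SLC2A3, HK2, EGLN1 and EGLN3) lie near background, and the offset sets the size of their changes.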
